A study of Mus musculus with 24 samples.

Results

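This account follows 10 genes of innate immune signalling in the forebrain of a mouse model of Alzheimer's disease: the chemokines Ccl2, Ccl3, Ccl4, Ccl6 and Cxcl10, the cytokines Il1a, Il1b, Tnf and Tgfb1, and the receptor gene Cd14. They were chosen by symbol, and each was followed through every probe set that maps to it alone. That gave 12 probe sets for 10 of the 18193 genes measured, with a second probe set for Ccl6 and for Tgfb1. TgCRND8 mice, which carry a transgene for human amyloid precursor protein with the Swedish and Indiana mutations (APPSwe/Ind), were compared with non-transgenic controls at 70, 80 and 150 days of age. There were 4 mice in each of the 6 groups, and 1 Affymetrix array per mouse gave 24 arrays. The RNA came from whole forebrain, after the olfactory bulb and the block of cerebellum and brainstem had been cut away. The sources used here do not give the promoter that drives the transgene or the sex of the mice. In RNA from whole tissue, more cells of a type and more RNA per cell cannot be told apart.

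Chemokines are small secreted proteins that draw leukocytes along a concentration gradient through G-protein-coupled receptors. Il1a, Il1b and Tnf encode the classical proinflammatory cytokines, which signal to NF-kappaB, and Tgfb1 encodes a growth factor that restrains inflammation and maintains microglia. Cd14 is a membrane-anchored protein of myeloid cells that hands bacterial lipopolysaccharide to the Toll-like receptor Tlr4 and its partner Ly96. In brain, microglia are the main source of most of these transcripts, and in mice with amyloid plaques they gather around the deposits.

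Ccl6, Ccl3 and Ccl4 follow one another on chromosome 11 with 0 protein-coding genes between neighbours, Ccl2 lies on the same chromosome 32 protein-coding genes from Ccl6, and Il1a and Il1b are adjacent on chromosome 2. The RefSeq promoter table (build GRCm38.p6) held 7 of the 10 genes. The 250 bases before the transcription start are shown, 5′ to 3′ on the strand of the gene, for Ccl3, Ccl6 and Cxcl10, picked after the tests. Ccl3 and Ccl6 are neighbouring chemokine genes that rose with age in TgCRND8 mice, and Cxcl10 is a chemokine gene that passed no test. Ccl4, the other neighbour of Ccl3, was not among the 7. From day 70 to day 150 in TgCRND8 mice Ccl4 differed by −0.02. Capitals mark matches to the motifs searched. The windows are chr11:83649379-83649628 on the minus strand for Ccl3, chr11:83593088-83593337 on the minus strand for Ccl6 and chr5:92348890-92349139 on the minus strand for Cxcl10.
Ccl3: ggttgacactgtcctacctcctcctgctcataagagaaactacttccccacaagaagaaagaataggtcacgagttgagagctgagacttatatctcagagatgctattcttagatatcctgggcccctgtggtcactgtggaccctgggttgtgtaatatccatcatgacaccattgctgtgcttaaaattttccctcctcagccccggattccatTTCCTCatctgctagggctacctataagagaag
Ccl6: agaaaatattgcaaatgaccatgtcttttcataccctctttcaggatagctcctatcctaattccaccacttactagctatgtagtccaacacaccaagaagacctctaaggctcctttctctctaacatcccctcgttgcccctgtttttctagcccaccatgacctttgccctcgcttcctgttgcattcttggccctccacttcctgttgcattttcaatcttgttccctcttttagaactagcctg
Cxcl10: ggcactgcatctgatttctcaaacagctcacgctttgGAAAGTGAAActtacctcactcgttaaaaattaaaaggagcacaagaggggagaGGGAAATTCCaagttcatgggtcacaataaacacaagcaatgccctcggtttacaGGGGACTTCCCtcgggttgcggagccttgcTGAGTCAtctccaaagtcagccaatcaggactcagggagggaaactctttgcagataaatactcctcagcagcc
Both strands were searched for 5 motifs: NF-kappaB (GGG, any 5 bases, then CC), AP-1 (TGANTCA), an interferon response element (GAAA, any 2 bases, then GAAA), the core of the PU.1 site (GAGGAA), PU.1 being the factor that specifies microglia and macrophages, and a TATA box (TATAAA). The Cxcl10 window held the interferon response element 213 bases before the start, an AP-1 match 74 bases before it, and NF-kappaB matches at 159, 104 and 103 bases, of which the last pair overlap. In the Ccl3 window the only match was a PU.1 core 33 bases before the start, on the strand opposite to the gene. The Ccl6 window held no match to these 5 sets of letters. Among the 7 genes, 3 had an NF-kappaB match, 2 an AP-1 match, 1 the interferon response element, 3 a PU.1 core and 3 a TATA box. Of all 32851 promoters in the table, 45.8% had an NF-kappaB match, 6.75% an AP-1 match, 2.98% the interferon response element, 23.3% a PU.1 core and 12.4% a TATA box. A match describes letters in a window and shows no binding.

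Most of these genes were measured in the lower part of the signal range of the array. A probe set was called dim where its mean over the 24 arrays lay below 4.31, the median of the array medians on the log2 scale of the deposited values. Of the 12 probe sets, 9 were dim, and 7 of the 10 genes were dim by their brighter probe set. Only Tnf (mean 4.87), Cd14 (4.77) and Ccl4 (4.37) were not. Ccl3 (mean 2.995) was below the lower quartile of its own array on 21 of 24 arrays, and Il1a (2.92) on all 24. Whether a dim probe set measured its transcript or mainly background was not tested.

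**Figure D1:**
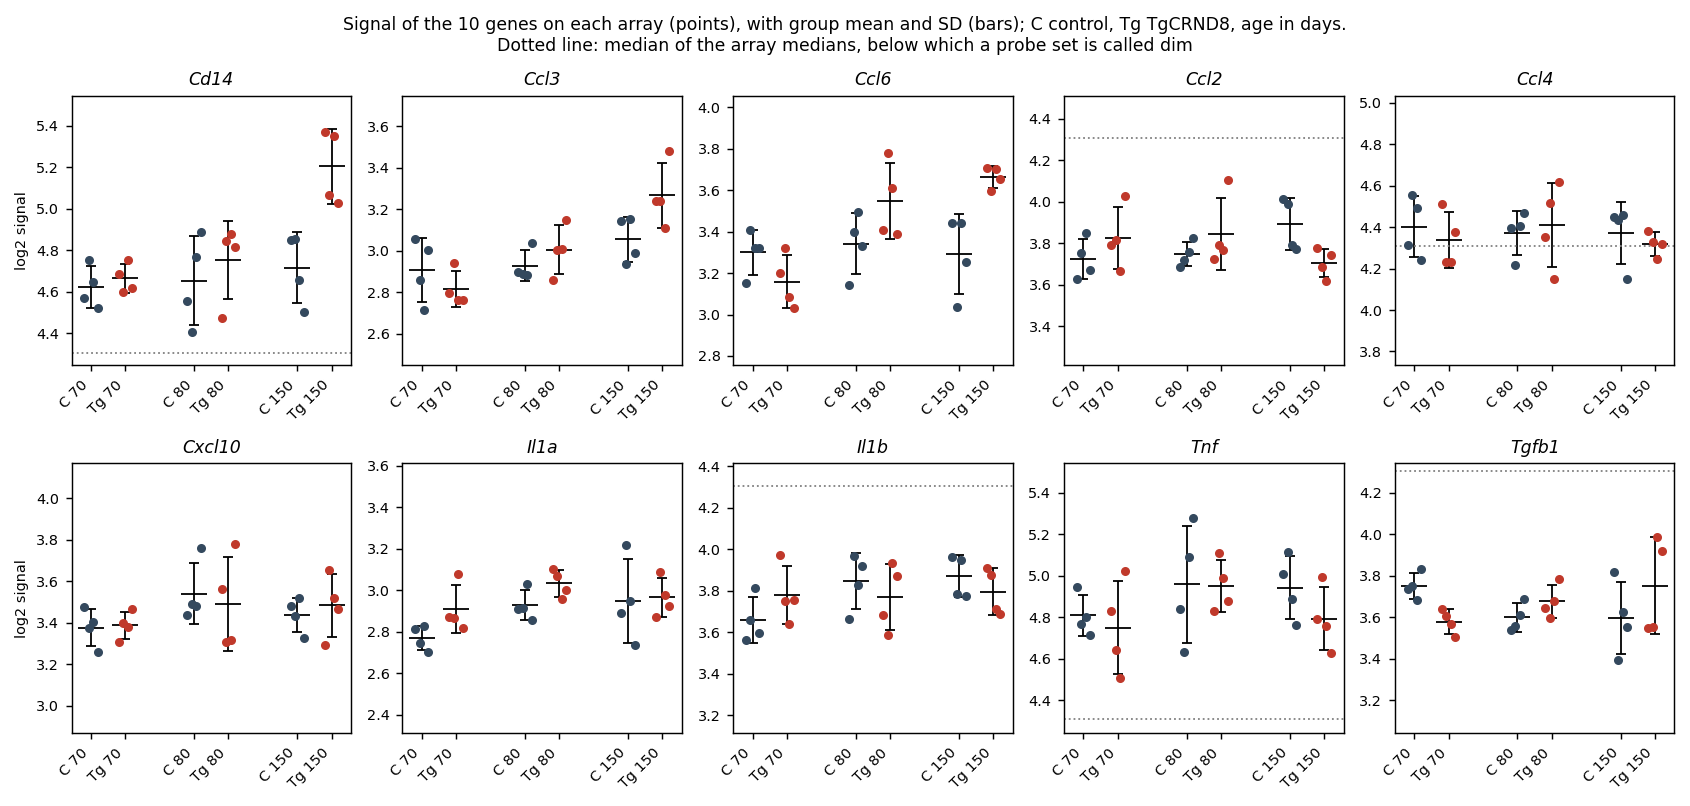
Log2 signal (y axis) of the 10 genes on each of the 24 arrays, by genotype and age (x axis); points are mice, long bars the group mean and error bars the SD (n = 4). The 4 TgCRND8 mice of day 150 lie between 5.03 and 5.37 for Cd14, above the highest of the other 20 arrays at 4.89, and for Ccl3, Ccl6, Cxcl10 and Il1a the dotted line that marks dim signal lies above the panel.

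Values of the whole series bear on the results in few places. Array medians ran from 4.28 to 4.37, and the correlation between any pair of arrays from 0.989 to 0.998. The mean of 10 neuron and forebrain markers lay between 8.97 and 9.43 on every array. One array, control day 150 replicate 4, stood apart with cerebellar transcripts: Gabra6, a receptor subunit of cerebellar granule cells, was at 4.58 there and at most 3.18 on the other 23 arrays, and Pcp2, a Purkinje cell gene, was at 6.27 against at most 4.56. For the 10 genes, by their brighter probe set, the comparisons that use day 150 controls are also given without it. The second probe sets, the lists of other genes and the genes of similar pattern are given only with it.

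Cd14 gave the clearest genotype difference of the 10 genes at day 150, although it did not pass the test over all genes. In 150-day-old TgCRND8 mice its log2 signal was 5.37, 5.07, 5.35 and 5.03, against 4.85, 4.86, 4.66 and 4.50 in controls. All 4 transgenic mice were above all 4 controls. The difference was 0.49 ± 0.11 (SE), a 1.40-fold higher signal (95% interval 1.20 to 1.64), with a p of 0.000145 and a limma p of 0.102 after Benjamini-Hochberg adjustment over 18193 genes. It was the 26th smallest p of all genes tested. Without control day 150 replicate 4 the difference was 0.42 and the adjusted limma p 0.338. The call depended on scaling and weighting: with each array centred on its median the difference was 0.51 with an adjusted limma p of 0.0322, and with array weights it was 0.48 with 0.0438.

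The earlier ages gave smaller Cd14 differences. At day 70 the gene was at 4.68, 4.60, 4.75 and 4.62 in TgCRND8 mice and 4.57, 4.75, 4.65 and 4.52 in controls, a difference of 0.04 (95% interval −0.18 to 0.27). At day 80 the values were 4.47, 4.84, 4.88 and 4.82 against 4.56, 4.40, 4.77 and 4.89, a difference of 0.10 (−0.12 to 0.33). The groups overlapped at both ages. In order of mean, day 150 TgCRND8 (5.20 ± 0.18, SD, n = 4) was followed by day 80 TgCRND8 (4.75 ± 0.19), day 150 controls (4.72 ± 0.17), day 70 TgCRND8 (4.66 ± 0.07), day 80 controls (4.65 ± 0.22) and day 70 controls (4.62 ± 0.10). From day 80 TgCRND8 downward, neighbours in that order differed by less than their SDs. The 4 day 150 TgCRND8 arrays were the 4 highest of all 24, which held for 21 of 18193 genes (0.115%). The change of the genotype difference from the mean of days 70 and 80 to day 150 was 0.42 ± 0.13 for Cd14, with an adjusted limma p of 0.732, and the genotype difference averaged over the 3 ages was 0.21 ± 0.06, with 0.867. These were 0.35 and 0.19 without control day 150 replicate 4.

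Among the chemokines, Ccl6, a rodent CC chemokine made by macrophages and microglia, stood next to Cd14 at day 150. Its brighter probe set was at 3.70, 3.59, 3.70 and 3.65 in TgCRND8 mice and 3.44, 3.04, 3.44 and 3.25 in controls. All 4 transgenic mice were above all controls, and the spread was narrower in the transgenic group (SD 0.05) than in controls (SD 0.19). The difference was 0.37 ± 0.10 (adjusted limma p 0.396), and 0.36 without control day 150 replicate 4 (adjusted limma p 0.432). At day 80 it was 0.21 ± 0.10 with overlapping groups (unadjusted limma p 0.0488), and at day 70 it was −0.14 ± 0.10. The second Ccl6 probe set, dimmer at a mean of 3.07 and below the lower quartile of its array on 22 arrays, differed by 0.06 at day 150.

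Ccl3, or macrophage inflammatory protein 1 alpha, a ligand of Ccr1, read 3.24, 3.24, 3.11 and 3.48 in day 150 TgCRND8 mice and 3.14, 2.94, 3.15 and 2.99 in controls. The groups overlapped by the transgenic mouse at 3.11. The difference was 0.21 ± 0.09, with an unadjusted limma p of 0.0235 and an adjusted one of 0.999, and without control day 150 replicate 4 it was 0.19 with an unadjusted limma p of 0.0592. Ccl2, or monocyte chemoattractant protein 1, the ligand of Ccr2, went the other way at day 150: 3.78, 3.68, 3.62 and 3.74 in TgCRND8 mice against 4.01, 3.99, 3.79 and 3.77 in controls. These groups overlapped narrowly, at 3.78 against 3.77, and the difference of −0.19 ± 0.09 had an unadjusted limma p of 0.0433 and an adjusted one of 0.999. It was −0.23 without control day 150 replicate 4. At days 70 and 80 the Ccl2 difference was 0.10 at each age.

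The remaining chemokines and the cytokines showed smaller differences at day 150. Ccl4, or macrophage inflammatory protein 1 beta, differed by −0.06 ± 0.10, and Cxcl10, an interferon-induced ligand of Cxcr3, by 0.04 ± 0.10. Tnf was at 4.79, 4.99, 4.76 and 4.63 in TgCRND8 mice and 5.01, 5.11, 4.89 and 4.76 in controls, a difference of −0.15 with a 95% interval from −0.40 to 0.10. The Tnf groups overlapped. Il1b differed by −0.07 (−0.26 to 0.12) and Il1a by 0.02 (−0.15 to 0.19). A difference of 0.5 lay outside the interval of each of Ccl4, Cxcl10, Tnf, Il1b and Il1a, for signals that, Ccl4 and Tnf aside, were dim. Without control day 150 replicate 4 the differences were −0.13 for Ccl4, 0.01 for Cxcl10, −0.21 for Tnf, −0.10 for Il1b and −0.05 for Il1a, so Ccl4 and Cxcl10 moved by over 1.5 times and Il1a changed sign.

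Tgfb1 was measured by a pair of probe sets that disagreed. The brighter was at 3.55, 3.55, 3.99 and 3.92 in day 150 TgCRND8 mice and 3.82, 3.39, 3.62 and 3.56 in controls, a difference of 0.16 ± 0.09. It was 0.14 without control day 150 replicate 4. The transgenic group was split between a pair of mice at 3.55 and a pair above all controls. The dimmer probe set differed by −0.23 ± 0.09 at the same age, so the mean of both gave −0.04, and neither passed the test. At day 70 the brighter probe set was lower in every TgCRND8 mouse, at 3.64, 3.61, 3.57 and 3.50 against 3.74, 3.75, 3.68 and 3.83 in controls (difference −0.17 ± 0.09, unadjusted limma p 0.077), while the dimmer one differed by 0.07.

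Counted over the family, 0 of the 10 genes passed the limma test between genotypes at day 150 at an adjusted p under 0.05, where 22 of 18193 genes (0.121%) did. At an unadjusted p under 0.05 there were 4, Cd14, Ccl6 and Ccl3 higher and Ccl2 lower, against 796 of all genes (4.38%). Without control day 150 replicate 4 there were 3, Ccl3 no longer among them, against 7.14% of all genes. In that fit 0 of the 10 passed the adjusted test, which 18 of all genes did. All transgenic arrays lay above all controls for 2 of the 10, Cd14 and Ccl6, against 1.53% of all genes. The difference was above 0 for 6 of the 10 genes, against 50.1% of all genes, and its median was 0.03. At day 70, 0 of 10 passed the limma test (0% of all genes), and 0 had an unadjusted p under 0.05 (3.25% of all genes). At that age 1 of the 10, Tgfb1, had all transgenic arrays below all controls, against 1.26% of all genes. At day 80, 0 of 10 passed (0% of all genes) and 1, Ccl6, had an unadjusted p under 0.05 (3.77%). With the ages averaged, 0 of 10 passed in limma (0.0385% of all genes) and 2 had an unadjusted p under 0.05 (3.16%). For the change of the genotype difference to day 150, 0 passed (0.0110%) and 3 had an unadjusted p under 0.05 (5.75%). Those 3 were Cd14 at 0.42 and Ccl6 at 0.34, and Ccl2 at −0.29. Without that array the last 2 comparisons also gave 0 passing, where 8 and 2 of all genes passed. At an unadjusted p under 0.05 they gave 2 (3.16% of all genes) and 3 (8.68%).

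**Figure D2:**
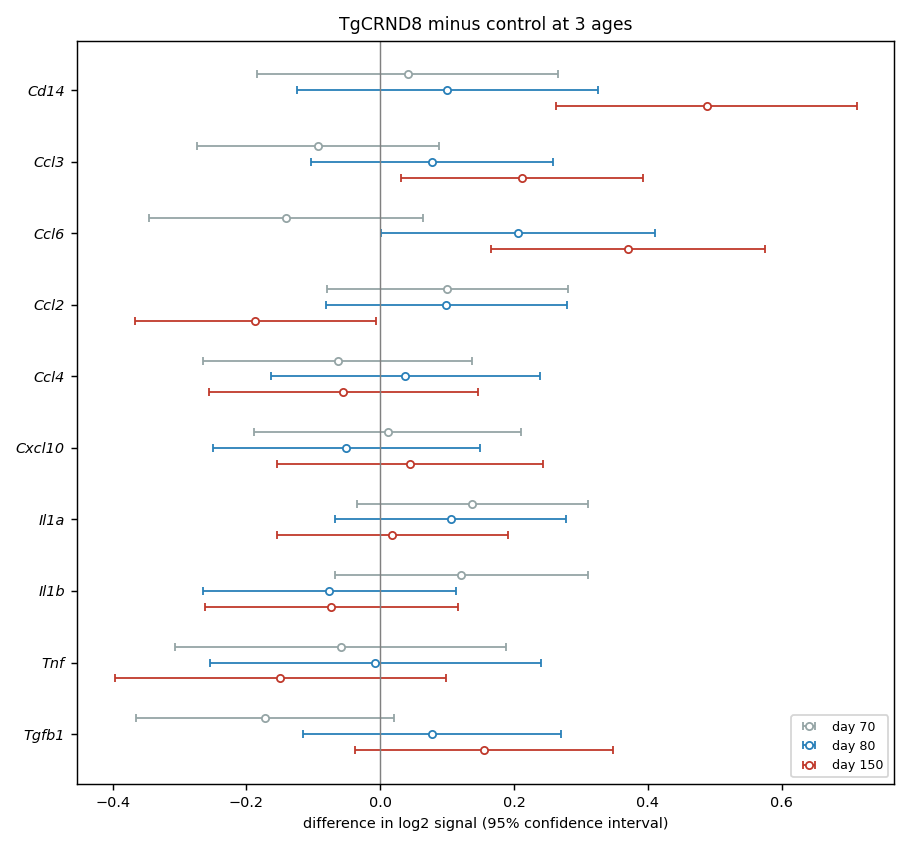
Difference in log2 signal, TgCRND8 minus control (x axis), for each of the 10 genes at days 70, 80 and 150; points are limma estimates from 4 mice a group and bars 95% confidence intervals. The day 150 intervals of Cd14 (from 0.26) and Ccl6 (from 0.17) lie furthest above 0, and 0 of the 30 differences passed the adjusted test.

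Within TgCRND8 mice, 3 of the 10 genes rose between day 70 and day 150: Cd14, Ccl3 and Ccl6. Their limma p adjusted over all genes was under 0.05, as it was for 16 of 18193 genes (0.0879%). They were also the 3 with an unadjusted limma p under 0.05, which 2.64% of all genes had. Ccl3 rose from 2.79, 2.94, 2.76 and 2.76 at day 70 to the day 150 values already given, a change of 0.45 ± 0.09 or 1.37-fold (adjusted limma p 0.0343). Ccl6 rose from 3.20, 3.32, 3.08 and 3.03, a change of 0.50 ± 0.10 or 1.42-fold (adjusted limma p 0.0386). Cd14 rose by 0.54 ± 0.11, or 1.45-fold (adjusted limma p 0.0470). For each of the 3, every day 150 mouse was above every day 70 mouse, which held for 1.22% of all genes. The day 70 TgCRND8 mean was also the lowest of the 6 group means for Ccl3 (2.81) and Ccl6 (3.16). The day 150 TgCRND8 arrays are shared with the genotype comparison of that age.

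The 3 adjusted p-values were close to the threshold, and the calls moved with the setting while the direction did not. Cd14 missed the threshold with trend and robust settings (adjusted limma p 0.0504) and with the Xist level as a covariate (0.0552), and Ccl3 with only the arrays compared (0.0969). With 1 array left out at a time, none of the 3 passed without TgCRND8 day 70 replicate 1, 3 or 4 or day 150 replicate 1, 2 or 4. Without day 150 replicate 3, 1 passed, and without day 70 replicate 2, 2 passed. Over these fits the rise stayed between 0.38 and 0.50 for Ccl3, between 0.46 and 0.56 for Ccl6 and between 0.48 and 0.60 for Cd14. Averaging both Ccl6 probe sets gave 0.28 (adjusted limma p 0.483), since the dimmer one changed by 0.06.

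In control mice over the same ages, Cd14 differed by 0.09, Ccl3 by 0.15 and Ccl6 by −0.01. In limma 0 of 10 genes passed there (0.0220% of all genes), and 2 had an unadjusted p under 0.05 (7.99% of all genes): Il1b, 0.21 higher at day 150, and Il1a, 0.18 higher. Without control day 150 replicate 4 the control differences were 0.16 for Cd14, 0.17 for Ccl3 and 0.01 for Ccl6. In that fit 0 of 10 passed in limma, as did 0 of all genes. An unadjusted p under 0.05 was found for 3 (11.2% of all genes), Il1b at 0.24, Il1a at 0.25 and Ccl2 at 0.21. The test of the difference itself, the genotype difference at day 150 minus that at day 70, called 0 of 10 genes in limma (0.0110% of all genes), with 5 at an unadjusted p under 0.05 (4.27%). It was 0.51 ± 0.14 for Ccl6 (adjusted limma p 0.913), 0.45 ± 0.15 for Cd14 and 0.31 ± 0.12 for Ccl3, and 0.50, 0.38 and 0.28 without control day 150 replicate 4. The rest of the 5 were Tgfb1 by its brighter probe set, at 0.33 ± 0.13, and Ccl2, which went the other way, at −0.29 ± 0.12. Without control day 150 replicate 4 these were 0.31 and −0.33. A change with age that differs between the genotypes was therefore not shown for any of the 10 genes. This comparison shares all of its arrays with the 2 genotype comparisons it is made from.

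From day 80 to day 150, 0 of 10 genes passed in TgCRND8 mice (0.0220% of all genes in limma), and 2, Cd14 and Ccl3, had an unadjusted p under 0.05 (6.76%). Cd14 was higher by 0.45 with no overlap of the groups (1.10% of all genes), and its adjusted limma p was 0.233. Ccl3 was higher by 0.26 and Ccl6 by 0.12. The day 80 TgCRND8 mice already read 3.41, 3.78, 3.61 and 3.39 for Ccl6, and one of them was the highest of the 24 arrays. In controls from day 80 to day 150, 0 of 10 genes passed in limma (0% of all genes) and 0 had an unadjusted p under 0.05 (3.41%), with or without control day 150 replicate 4 (5.32% of all genes without it).

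**Figure D3:**
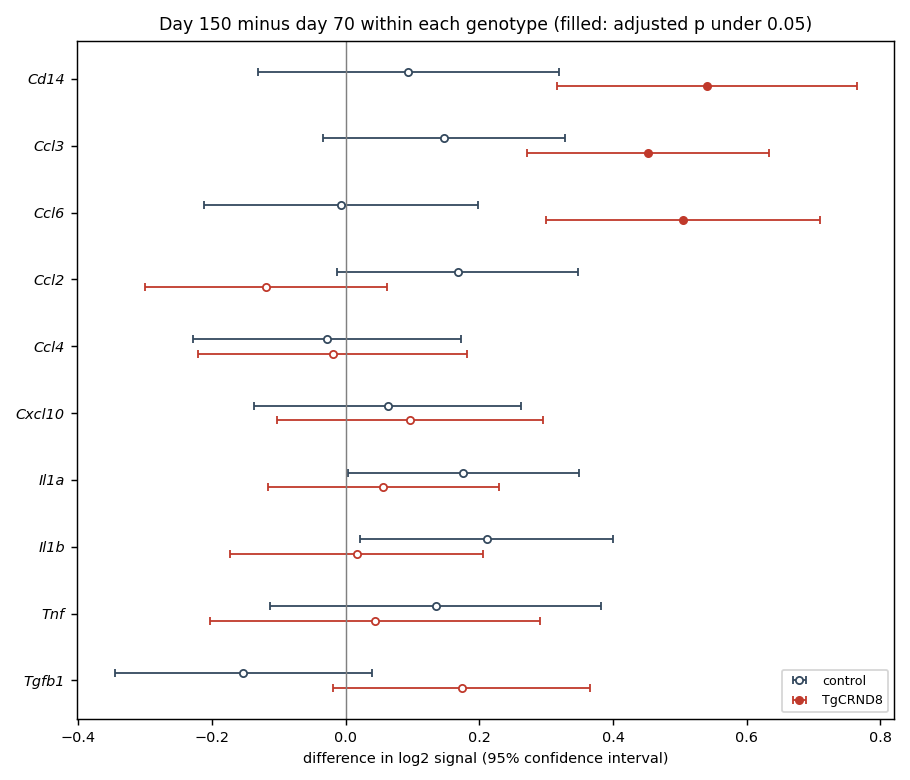
Difference in log2 signal between day 150 and day 70 (x axis) for the 10 genes, in controls and in TgCRND8 mice; points are limma estimates with 4 mice a group, bars are 95% confidence intervals and filled points have an adjusted p under 0.05. Cd14, Ccl3 and Ccl6 are filled in TgCRND8 mice only, at 0.54, 0.45 and 0.50, and the difference between the genotypes did not pass its own test for any of them.

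The receptors and signalling partners of these proteins were followed as 8 lists with 135 measured genes, of which 0 passed the limma test in any of the 9 comparisons. At day 150, 8 of the 135 had an unadjusted p under 0.05, against 4.38% of all genes. Of 21 other chemokine ligands, 11 of them dim, 14 were higher in day 150 TgCRND8 mice, with a median difference of 0.05. The smallest p-values there belonged to Ccl12, a ligand of Ccr2, at 0.29 (adjusted limma p 0.978) and to Ccl9, a CC chemokine that acts through Ccr1, at 0.24. Both were dim. Of 17 chemokine receptors, 11 of them dim, 10 were higher (median 0.01). The smallest p-values belonged to 2 that were dim and lower, Ccr9 at −0.12 and Cxcr5 at −0.11. The receptor of Ccl2, Ccr2, which was not dim, differed by −0.11, and Ccr1, also dim, by 0.06.

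In the IL-1 pathway 8 of 17 genes were higher (median −0.0012), and 8 of the 17 were dim. Pycard, the adaptor of the inflammasome that activates caspase 1 and so the release of Il1b, was highest at 0.36 (unadjusted limma p 0.0123). Next in order of p was the decoy receptor Il1r2, itself dim, at 0.11. In the TNF pathway 6 of 15 were higher (median −0.01), and 5 of the 15 were dim. There the second TNF receptor, Tnfrsf1b, differed by −0.29 and the adaptor Tradd by 0.17. In the TGF-beta pathway, where 4 of 20 genes were dim, 9 of the 20 were higher (median −0.01). Both signalling receptors were among them, Tgfbr1 at 0.38 and Tgfbr2 at 0.27, each with an adjusted limma p of 0.999. For Tgfbr1 all TgCRND8 mice were above all controls, which held for 1.53% of all genes.

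Downstream of Cd14, 8 of 15 genes of the Toll-like receptor pathway were higher (median 0.01), and 10 of the 15 were dim. Tlr2, Tlr4 and Ly96 were all dim and differed by 0.08, −0.04 and 0.01. By p the list was led by Traf6, a ubiquitin ligase of the pathway, at −0.20 and the adaptor Tirap, itself dim, at 0.16. Of 15 genes of NF-kappaB and its feedback targets, 5 of them dim, 8 were higher (median 0.02). The subunit gene Rel (−0.27), itself dim, and the inhibitor gene Nfkbia (−0.19) were both lower. Of 15 other cytokines, 11 of them dim, 6 were higher (median −0.02). By p, Ifng at −0.16 and Il15 at 0.16 came first, and both were dim. Across all genes tested the median difference was 0.00044 and 50.1% were above 0.

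**Figure D4:**
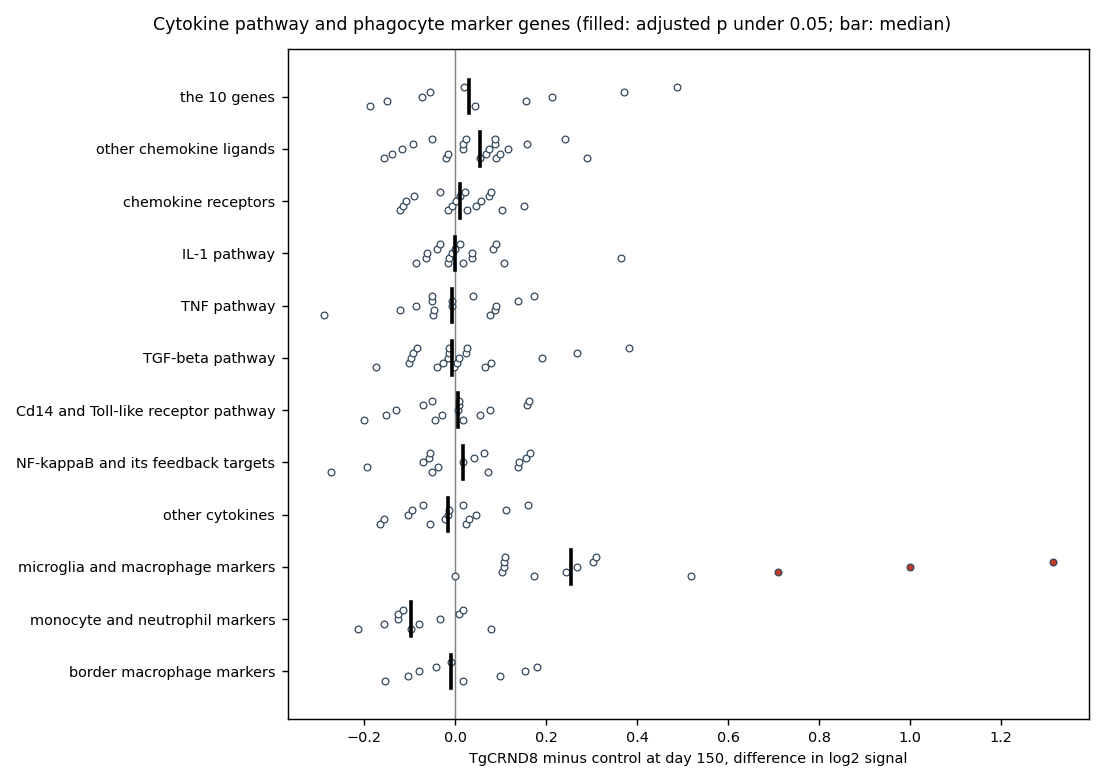
Difference in log2 signal, TgCRND8 minus control at day 150 (x axis), for each gene of the lists named on the y axis; circles are genes, thick bars the median of a list, and filled circles genes with an adjusted limma p under 0.05. The 8 pathway lists have medians between −0.02 and 0.05 and no filled circle, and the microglia and macrophage list has a median of 0.25 with 3 filled circles, Tyrobp, Cd68 and Ptprc.

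Some markers of the cells that make these transcripts were also higher in day 150 TgCRND8 mice. Of 14 microglia and macrophage markers, 3 rose at day 150 by the limma test: Tyrobp, a signalling adaptor of microglial receptors, by 1.31 (adjusted limma p 0.00076), the lysosomal gene Cd68 by 0.999 and the leukocyte phosphatase gene Ptprc by 0.71 (both 0.00258). At that age 0.121% of all genes passed. Dim signals were found for 3 of the 14, Ptprc among them. Of the 14, 13 were higher, with a median of 0.25, against 50.1% of all genes. Averaged on each array, the list stood at 5.89 to 6.16 in day 150 TgCRND8 mice and at 5.56 to 5.67 in controls of that age. In the other 4 groups it ran from 5.62 to 5.92. Between day 70 and day 150 in TgCRND8 mice, Tyrobp rose by 1.01 (adjusted limma p 0.018), 11 of the 14 were higher, against 48.8% of all genes, and the median was 0.11. In controls over the same ages 13 of the 14 were lower, with a median of −0.09 (−0.0034 over all genes), while Cd14 differed by 0.09. The part of these markers in the differences of Cd14, Ccl3 and Ccl6 was not tested.

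Other cell types were followed by their own lists. Of 9 border macrophage markers, all dim, 4 were higher at day 150 (median −0.01), with Mrc1 at 0.18, Cd163 at 0.15 and Lyve1 at −0.15, and the list mean lay between 3.36 and 3.59 on all arrays. Of 11 monocyte and neutrophil markers, 10 of them dim, 3 were higher (median −0.10), and the list mean was 3.60 to 3.75 in TgCRND8 mice and 3.66 to 3.86 in controls. Ccr2, the first of the list, differed by −0.11, Plac8 by 0.08 and Chil3 by 0.02. The smallest p-values of the list belonged to Mmp8 at −0.21 and Mpo at −0.16, neither of which passed. S100a8, a defining neutrophil gene, was dim and differed by 0.01. At day 80, where Ccl6 had its unadjusted p under 0.05, 10 of these 11 markers were higher in TgCRND8 mice, against 50.9% of all genes, with a list mean of 3.75 to 3.94 against 3.55 to 3.82, and their part in it was not tested. Of 10 lymphocyte markers, 2 were higher at day 150 (median −0.11), and the T cell receptor subunit genes Cd3e and Cd3d differed by −0.12 and −0.09.

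Of 10 astrocyte markers 2 rose at day 150, Gfap by 1.42 and Vim by 0.74, both intermediate filament genes of reactive astrocytes. Of all genes 0.121% passed at that age. Among the 10, 4 were higher and 6 lower, with a median of −0.0022. None of the endothelial (8 genes, 3 higher), meningeal fibroblast (9, 3 higher), choroid plexus (8, 3 higher), blood (4, 2 higher), neuron and forebrain (10, 6 higher) and cerebellum (6, 1 higher) markers passed in limma at day 150, and 3 of these 45 genes had an unadjusted p under 0.05 (4.38% of all genes). Among them Cldn5 differed by 0.14 and Pecam1 by −0.17 (endothelial), Col1a1 by 0.08 and Col1a2 by −0.02 (meningeal), Ttr by −0.26 and Folr1 by −0.09 (choroid plexus), Hba-a1 by −0.18 and Hba-a2 by −0.05 (blood), and Snap25 by 0.08 and Syt1 by −0.01 (neuron). Gabra6 differed by −0.46 and Pcp2 by −0.56 (cerebellum). The cerebellum list had a median of −0.30, and its highest array was the control already named. Between day 70 and day 150 in TgCRND8 mice the collagen gene Col3a1, a meningeal fibroblast marker, fell by 0.67 (adjusted limma p 0.0468) beside the rise of the 3 genes.

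**Figure D5:**
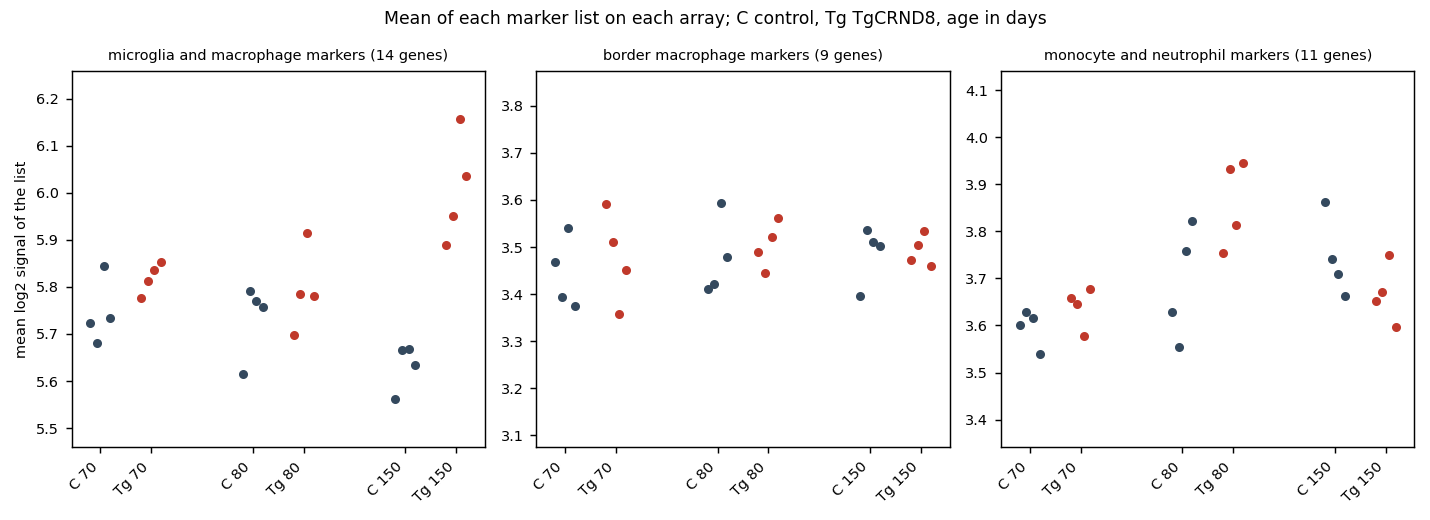
Mean log2 signal (y axis) of the microglia and macrophage, border macrophage, and monocyte and neutrophil marker lists on each array, by genotype and age (x axis); each point is 1 mouse. In the first panel the day 150 TgCRND8 mice lie between 5.89 and 6.16 and the controls of that age between 5.56 and 5.67, and in the other 2 panels the groups of that age overlap.

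For the 3 genes that were not dim, the genes of most similar pattern were found by Pearson correlation over the 24 arrays, as a description, since all genes share the arrays and their groups. Cd14 was most like Cst7, an inhibitor of lysosomal cathepsins that microglia express around plaques, with r = 0.85 (Spearman rho 0.70), then the macrophage gene Mpeg1 (r = 0.81) and Ly86 (r = 0.81), a partner of a Toll-like receptor homologue. Much of the likeness to Cst7 lay in the day 150 TgCRND8 group: r was 0.43 over the other 20 arrays, 0.68 without the 2 arrays farthest from the median of Cd14, and 0.53 for deviations from the group means. At day 150 Cst7 rose by 1.59 and Mpeg1 by 0.84 (adjusted limma p 0.00258), while Ly86 was 0.68 higher with an adjusted limma p of 0.123. Ccl4 was most like Slc25a29 (r = 0.80), Akr1c21 (0.80) and Scarf2 (0.78), and Tnf was most like 9430041J12Rik (0.80), 2310034O05Rik (0.79) and Gfra3 (0.79). For these, r over the 20 arrays without day 150 TgCRND8 mice was between 0.77 and 0.82.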

How the data were processed

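Forebrain RNA from 24 mice was hybridised as biotin-labelled cRNA to Affymetrix mouse arrays, per the labels' protocols. The table deposited by the authors holds log2 signals, how they were normalized being not given in the sources used here. Of 45101 probe sets, 64 were controls, 34945 mapped to 1 gene symbol in the platform annotation, 932 to several and 9160 to none. For each of 18193 genes the probe set of highest mean over all arrays was used. limma 3.58.1 in R 4.3.3 fitted 6 group means on all arrays (lmFit and eBayes, 18 residual degrees of freedom), with Benjamini-Hochberg adjustment over all genes and calls at an adjusted p under 0.05. Figures used matplotlib 3.10.9 in Python 3.11.15. Arrays carry no read depth: their number, 4 a group, limits precision, and the median SE of a day 150 genotype difference was 0.0977. The titles call the arrays biological replicates. In a simulation of day 150 over 18193 genes, 100 genes were shifted by 0.5 and 100 by 1 in the same run. Of these, 71% and 100% were recovered, with 11 false calls. With fewer genes called, the adjustment asks for a smaller p, so these shares can overstate recovery in the real comparison, which called 22 genes.

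Replicate numbers in the titles run through every group. At day 150 the deviations of same-numbered control and TgCRND8 arrays correlated at 0.256, 0.194, 0.137 and 0.217. Those of same-numbered control arrays of day 70 and day 150 correlated at 0.281, 0.0601, 0.173 and 0.320. In every other comparison of a pair of groups the signs were mixed. Between genotypes the correlations were 0.292, 0.0310, 0.134 and −0.321 at day 70, and 0.479, −0.231, 0.372 and 0.134 at day 80. The labels do not say what the numbers mark. The main test used no pairs, and the replicate block was an alternative setting. Other settings were other scalings between arrays (quantile normalization or a common median), other handling of probe sets (their mean, or each alone), a filter that drops the dimmest 40% of genes, trend and robust settings, array weights, the Xist level as a stand-in for sex, the replicate block, only the arrays compared, an adjusted p under 0.10, and each array omitted in turn.

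Named were all 10 genes, every pathway gene that passed, the 2 of smallest p in each pathway list, every passing gene or else the first 2 measured of each marker list, and the 3 genes most like each gene that was not dim. Ccr1, Ccr2, Tlr2, Tlr4, Ly96, Lyve1 and S100a8 were added after their values were seen, as receptors or defining markers. Mmp8 and Mpo were added as the 2 of smallest p at day 150 in their marker list. The genes and lists were chosen with earlier results of these data known.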

Additional observations from a re-analysis of the deposited data

Results flagged for a closer look

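In each group of 4 mice, the highest and lowest array was compared with its neighbour by Dixon's ratio. Of 60 combinations of gene and group, 4 stood out, where chance gives about 5%. Control day 80 replicate 4 was the highest of its group for Ccl3, at 3.04 against 2.88 to 2.90, and for Cxcl10, at 3.76 against 3.43 to 3.49. Control day 150 replicate 4, the array with cerebellar transcripts, was the lowest of its group for Ccl4, at 4.15 against 4.44 to 4.46. TgCRND8 day 80 replicate 1 was the lowest of its group for Cd14, at 4.47 against 4.82 to 4.88.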

How the results depend on the processing

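Counts and single differences were recomputed under up to 12 alternatives (11 for genes that the filter on dim genes removes) and with each array of the groups compared left out in turn, which is 8 arrays for a comparison of 2 groups and 24 for those over all ages. The genotype difference at day 150 minus that at day 70, added after seeing the data, was recomputed only without control day 150 replicate 4. The count of genes that rose in TgCRND8 mice from day 70 to day 150 was 3. It stayed 3 with quantile normalization, median centring, array weights and an adjusted p under 0.10. It was 2 with trend and robust settings and with Xist (without Cd14), and 2 with only the arrays compared (without Ccl3). It was 1 with the mean of all probe sets, 0 with all probe sets, and 0 without the dimmest 40% of genes, where only 2 of the 10 genes (Cd14 and Tnf) were tested and Cd14 had an adjusted limma p of 0.0538. Leaving out 1 array gave 0 to 2. For the day 150 genotype difference the count was 0, became 1 (Cd14) with median centring and 1 with array weights, and stayed 0 with any array left out.

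With the replicate block, 2 of the 3 rises passed (Ccl3 and Ccl6), and the adjusted limma p of Cd14 was 0.0507. Restricted to the arrays compared, an alternative chosen after seeing the data, the replicate block left 1 (Cd14). Same-numbered arrays of that comparison did not all deviate together (r = 0.232, −0.103, 0.118 and −0.157), so the arrays share only a number there. The block changed no call between genotypes at day 150.

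Of 1154 recomputed differences of single genes, 37 changed sign, and 8 of these came from alternatives other than leaving out an array. Those 8 were the day 70 difference of Cxcl10 (−0.011 with quantile normalization, −0.0041 with median centring, −0.00053 with Xist), the day 80 difference of Tnf (0.065 with array weights), the day 150 difference of Tgfb1 (−0.037 with the mean of all probe sets), the change of Ccl6 in controls (0.017 from day 70 and 0.011 from day 80, with the mean of all probe sets), and that of Ccl4 in TgCRND8 mice from day 70 (0.0092 with array weights).

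Leaving out arrays turned 13 small differences. Between genotypes the ranges were −0.029 to 0.044 for Cxcl10 and −0.149 to 0.022 for Tnf at day 70. At day 80 they were −0.032 to 0.123 for Ccl4, −0.147 to 0.022 for Cxcl10 and −0.116 to 0.098 for Tnf. At day 150 they were −0.013 to 0.108 for Cxcl10 and −0.053 to 0.109 for Il1a. In controls they were −0.057 to 0.078 for Ccl6 from day 70, and −0.114 to 0.037 for Ccl6 and −0.020 to 0.141 for Cd14 from day 80. In TgCRND8 mice from day 70 they were −0.055 to 0.038 for Ccl4, −0.030 to 0.081 for Il1b and −0.038 to 0.134 for Tnf. None of these differences passed the test in any setting, and the cause of the sign changes was not tested. Of the 10 genes 7 were dim, and what this did to their differences was not tested.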

Other observations

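One array of the middle age carried the highest value of several genes. TgCRND8 day 80 replicate 4 was the highest of all 24 arrays for 3 of the 10 genes: Ccl2 at 4.10, Ccl4 at 4.62 and Cxcl10 at 3.78. Ccl2 and Cxcl10 were dim. The share of all genes that were highest on this array was not counted, so the count says nothing particular to the 10 genes. The highest Ccl6 value of the series, 3.78, was on TgCRND8 day 80 replicate 2. The highest Tnf value, 5.28, was on a control array of day 80.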
